A study of Mus musculus with 2 samples.

Results

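The genes described here are aquaporin-4 (Aqp4) and 7 genes of the dystrophin-associated complex of muscle, namely dystrophin (Dmd), dystroglycan (Dag1), beta-1-syntrophin (Sntb1), alpha-dystrobrevin (Dtna) and the sarcoglycans Sgca, Sgcb and Sgcd. Members were all non-control probes on both arrays whose gene name, or whose current symbol by transcript accession, was one of these 8 symbols. This gave 20 probes of 41174 and 8 genes of 21595 named on the array. All 8 genes and 18 of the 20 probes were measured: both arrays had the probe well above background, and neither had it saturated. The members were chosen by their known partnership in the muscle membrane and with the measured differences between these same arrays in view, so their values are a description and support no test.

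The samples were gastrocnemius, a mostly fast-fibre calf muscle, of wild-type male C57BL/6 mice aged 9 weeks. The denervated group had lost the nerve supply for 14 days, starting at 7 weeks of age. The control group is called sham in one label and only control in another, and no other treatment or allele is given for either group. RNA of 6 mice was pooled per group and each pool was hybridised to 1 Agilent array, so there is no replicate array, no p-value and no estimate of the spread between mice. Both arrays lay on one slide, and position on it and group cannot be told apart.

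Dystrophin ties the actin cytoskeleton of a muscle fibre to dystroglycan, a membrane receptor that binds laminin outside the cell. The sarcoglycans sit beside dystroglycan in the membrane, while syntrophins and dystrobrevins bind dystrophin on the inner face and anchor signalling and channel proteins there. Aquaporin-4, the water channel of fast fibres, is held at the membrane of these fibres through its tail, which binds syntrophin.

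Signals are background-corrected spot intensities from the scanner software. A difference is the log2 signal of the denervated pool minus that of the control pool after each array was scaled to its own 75th percentile, which was 788 for the control pool and 1063 for the denervated one. The value after ± is the software's technical error carried through both arrays. It holds no spread between mice. Scaling to spike-in controls instead raises every difference by 0.40, and leaving the arrays unscaled raises it by 0.43, so a difference between about -0.43 and 0 has no settled direction. Of 15433 genes measured, 8.52% were lower after denervation by 2-fold or more and 6.98% were higher by as much, and the median difference was -0.11.

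Aqp4 was lower in the denervated pool by 92.3-fold, Dtna was lower by 2.22-fold at its main probe, and the other 6 members lay within 2-fold. Thus 2 of the 8 members were at least 2-fold lower and none was 2-fold higher. The rule that chose the members used these same arrays, and nothing is read from that count. The member median was -0.21, or 0.20 with spike-in scaling. By probe, 5 of the 18 measured differences were above 0 and 13 below, and with spike-in scaling 11 were above 0.

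**Figure D1:**
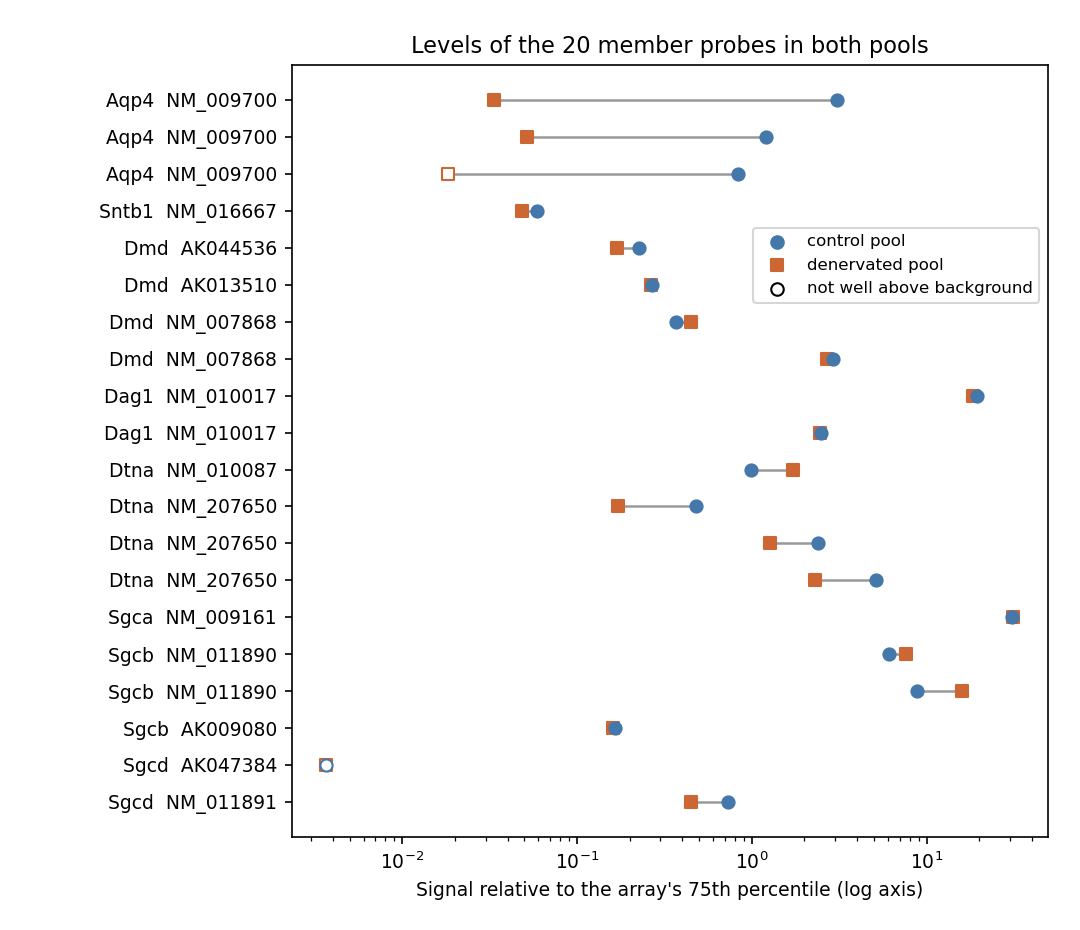
Signal of each of the 20 member probes relative to its array's 75th percentile, on a log axis, with circles for the control pool, squares for the denervated pool and open symbols where a spot was not well above background. The 3 Aqp4 probes are the only ones in the plot whose pools lie more than 10-fold apart.

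Aqp4 was the lowest of the 15433 measured genes. It has 3 probes, all for transcript NM_009700, which lie within 1 kb of one another on chromosome 18 (mm8, minus strand). The brightest, at chr18:15536006-15536065, read 2431 in the controls and 35.6 after denervation, a difference of -6.53 ± 0.27. The second, at chr18:15536475-15536534, read 952 and 54.8, a difference of -4.55 ± 0.24, or 23.4-fold. Only 7 other genes had a main value below that of this second probe. The other, at chr18:15536642-15536701, read 656 in the controls and 19.5 after denervation, where it was not well above background. These readings were 45.5-fold apart after scaling, and no measured difference is given for this probe.

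All 3 probes were far lower in the denervated pool, and they disagree on the size. Denervated signals of the measured probes, 35.6 and 54.8, compare with 17.9 for the lowest signal that counted as detected on that array. The size depends on how the background is treated, and it was -4.95 with the normexp background model. Over the 12 alternatives that gave a value, the Aqp4 difference lay between -6.71 and -4.55. The genes next to it in rank were Ostn (-6.36 ± 0.21), which encodes the peptide musclin, and Cntnap2 (-5.86 ± 0.34), a membrane protein known from axons. Cntnap2, measured by 1 probe, read 964 in the controls and 22.4 after denervation, also near the lowest detected signal. With 1 array per group, closeness in rank is the only likeness of pattern that can be given.

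**Figure D2:**
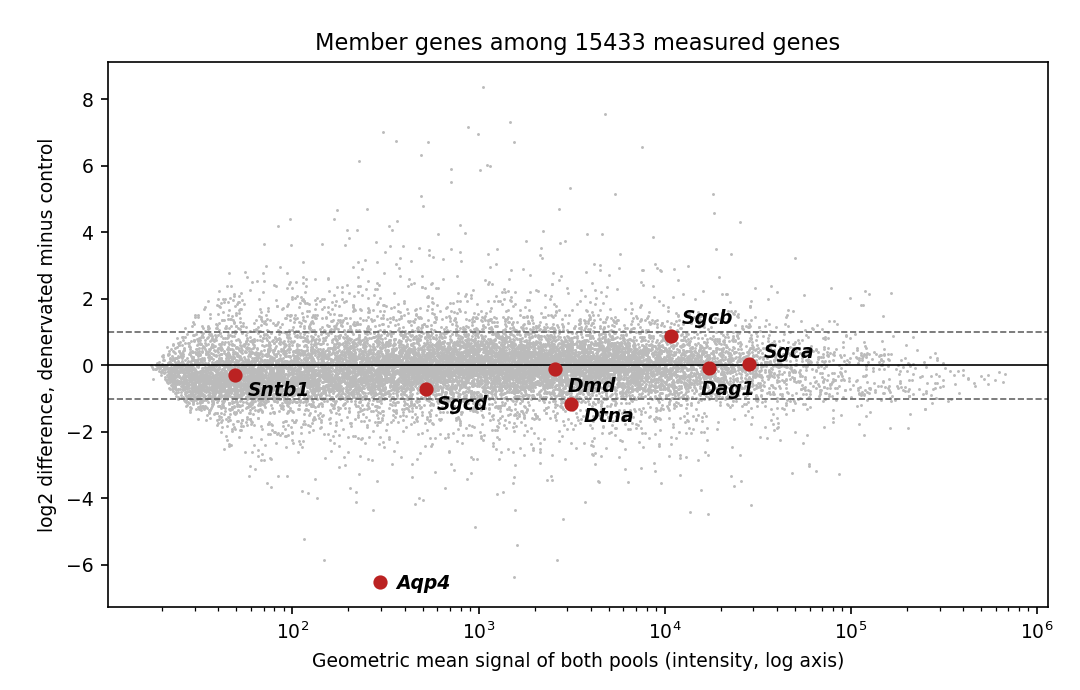
Log2 difference (denervated minus control) of 15433 measured genes against the geometric mean signal of both pools on a log axis, with the 8 members in red and dashed lines at 2-fold. Aqp4 is the lowest point of the plot, Dtna lies just beyond the lower line, and the other 6 members lie between the lines.

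Aqp4 is known as a gene of fast fibres, and the markers of those fibres lay within 2-fold. All 10 fast-fibre markers on the list (Myh4, Myh1, Myh2, Tnnt3, Tnni2, Tnnc2, Actn3, Pvalb, Atp2a1 and Mybpc2) were measured and lay between -0.70 and -0.17. Their median of -0.41 is -0.0076 with spike-in scaling. Their summed scaled level in the denervated pool was 75.8% of the control level. The Aqp4 level was 1.08% by the brightest probe and 4.27% by the second. Aqp4 was chosen with its low value known, so nothing is read from the gap to these markers. The 6 general fibre markers, including skeletal actin (Acta1) and muscle creatine kinase (Ckm), were bright in both pools, with control signals of 203692 to 476463. All 6 lay below 0, with a median of -0.37 (0.03 with spike-in scaling) and a summed level at 74.3% of control. Myh4 and Myh1 are on both lists. In bulk tissue, fewer cells of a type and less RNA per cell cannot be told apart. The part of fibre type or fibre loss in the Aqp4 difference was not tested.

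Dystrophin transcripts differed little between the pools. The main Dmd probe, near the 3′ end of the gene at chrX:81456898-81456957 (mm8, plus strand, NM_007868), was printed in 10 spots. These read 2163 to 2414 with a median of 2271 in the controls and 2746 to 3021 with a median of 2858 after denervation. Before scaling the spots of the pools do not overlap, and after scaling the difference was -0.11 ± 0.20 with an SD of 0.036 over the 9 spot positions usable on both arrays. It was 0.29 with spike-in scaling, so its direction is not settled.

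The other 3 Dmd probes were dimmer, and none passed 2-fold. Further upstream, about 60.2 kb from the end of the main probe, a second NM_007868 probe read 291 and 474, a difference of 0.27 ± 0.20. A neighbouring probe for a hippocampus cDNA (AK013510), about 63.9 kb upstream, read 213 and 280 (-0.04 ± 0.21). A probe for a retina cDNA (AK044536), about 1474 kb upstream, read 177 and 179 (-0.42 ± 0.21). The Dmd gene makes full-length and short dystrophins from separate promoters, and these probes were not assigned to them here. Utrophin (Utrn), the dystrophin relative that is concentrated at the neuromuscular junction, stood at 0.26 ± 0.20 by its brightest probe, and its 6 probes ran from -0.41 to 0.26.

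Dystroglycan, the membrane receptor of the complex, was close to level by both of its probes. The brighter Dag1 probe (chr9:108064261-108064320, mm8, minus strand, NM_010017) read 15268 and 19556, a difference of -0.08 ± 0.20. The other (chr9:108064704-108064763) read 1953 and 2595, a difference of -0.02 ± 0.20. The Dag1 probes were 0.05 apart in their differences, the smallest gap of the 5 members with several measured probes. With spike-in scaling they became 0.32 and 0.38.

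Alpha-dystrobrevin gave different answers by probe. Probes near the 3′ end of Dtna, all for transcript variant 1 (NM_207650), were lower in the denervated pool. The main one, at chr18:23802161-23802220 (mm8, plus strand), read 4026 and 2443 (-1.15 ± 0.20), which is -0.75 and short of 2-fold with spike-in scaling. The next, at chr18:23799222-23799281, read 1892 and 1346 (-0.92 ± 0.20).

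The variant 1 probe farthest upstream gave the lowest Dtna value. It is placed at chr18:23789296-23789956, a span longer than its neighbours', and read 379 and 183 (-1.48 ± 0.21). In contrast, the probe for transcript variant 2 (NM_010087), at chr18:23733223-23733282 and about 69.0 kb upstream of the end of the main probe, read 777 in the controls and 1831 after denervation (0.80 ± 0.20). So 3 probes of one annotated transcript lay below 0 and the probe of the other lay above 0.

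The variant 2 probe lay 1.73 ± 0.29 above the variant 1 probe closest to it in value, the one at -0.92, and a constant scaling factor shifts both probes alike. Constant scalings, dim filters and probe rules leave this gap as it is. Quantile normalization, loess centring, the normexp background and the authors' deposited values could move it, and with them it lay between 1.60 and 1.73. Over the main setting and the 13 alternatives the variant 2 probe was between 0.79 and 1.24 and the variant 1 probes between -1.48 and -0.49. A range over probes widens with their number, and of the 372 genes with 4 measured probes, as Dtna has, 1.61% had a range at least as wide as the 2.28 of Dtna. Among all 5905 genes with several measured probes the share was 0.762%, and the median range was 0.29. Dtna was chosen with the differences on these arrays in view, so these shares are a description and support no test. Alpha-dystrobrevin is known to be made in isoforms that differ at the carboxyl end and in their place on the muscle membrane. Which isoform each probe reads was not tested.

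**Figure D3:**
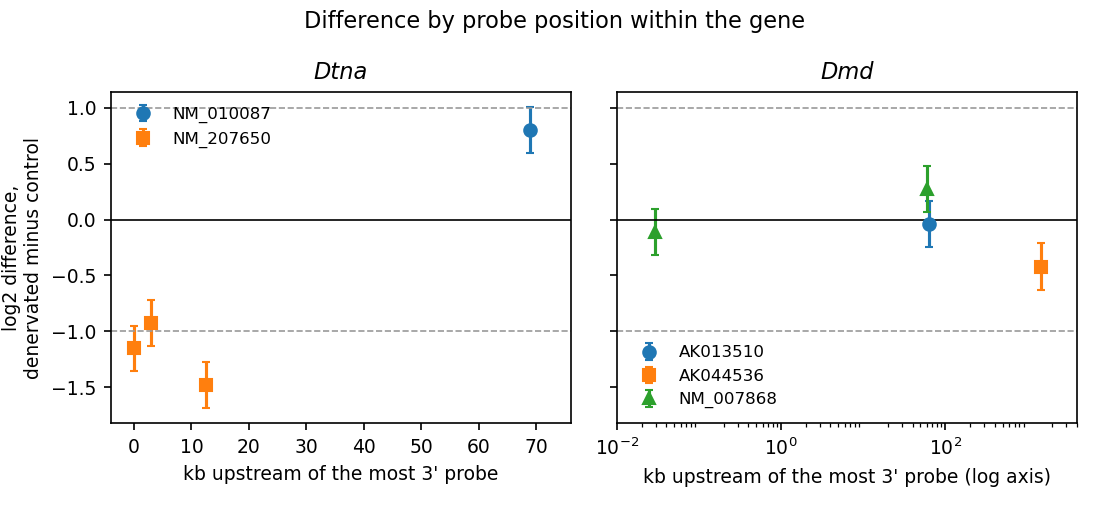
Log2 difference (denervated minus control, ± technical error) of the 4 Dtna and 4 Dmd probes against the distance in kb upstream of the end of the most 3′ probe, linear for Dtna and on a log axis for Dmd, with symbols by annotated transcript. The 3 NM_207650 probes of Dtna lie between -1.48 and -0.92 and the NM_010087 probe at 0.80, while the Dmd probes stay between -0.42 and 0.27.

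Syntrophins are the adaptors that hold aquaporin-4. Sntb1 has 1 probe (chr15:55469249-55469308, mm8, minus strand, NM_016667), which was dim, at 46.7 in the controls and 51.3 after denervation. Its difference of -0.30 ± 0.25 was 0.10 with spike-in scaling and -0.02 with signal-dependent loess centring. No direction can be given for Sntb1. Beta-2-syntrophin (Sntb2), a form found at the neuromuscular junction, stood at -0.44 ± 0.20. The gamma-syntrophins Sntg1 and Sntg2 were not well above background on either array. Sntb1 and Sntb2 lay within 0.5 of 0 and Aqp4 was at -6.53, and a link between these differences was not tested.

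The sarcoglycans form one subcomplex in the membrane, and their transcripts differed in opposite directions. Sgcb was the highest of the 8 members. Its main probe (chr5:73914512-73914571, mm8, minus strand, NM_011890) read 6923 and 17012, a difference of 0.86 ± 0.20, just short of 2-fold, and 1.26 with spike-in scaling. A second NM_011890 probe (chr5:73913028-73913087) read 4804 and 8097, a difference of 0.32 ± 0.20. A dim further probe for a tongue cDNA that the file assigns to Sgcb (AK009080, chr5:73923289-73923348) read 130 and 171 (-0.04 ± 0.21). The size of the Sgcb difference therefore rests on the main probe.

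Sgca, the sarcoglycan largely restricted to striated muscle, read 24149 and 33300 (chr11:94779420-94779479, mm8, minus strand, NM_009161), a difference of 0.03 ± 0.20. Sgcd read 575 and 474 (chr11:46824266-46824325, mm8, minus strand, NM_011891), a difference of -0.71 ± 0.20, which stayed below 0 at -0.31 with spike-in scaling. Its second probe, for a cerebellum cDNA (AK047384), was not well above background on either array. By their main probes, the 3 members ran from Sgcb at the top through Sgca to Sgcd.

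**Figure D4:**
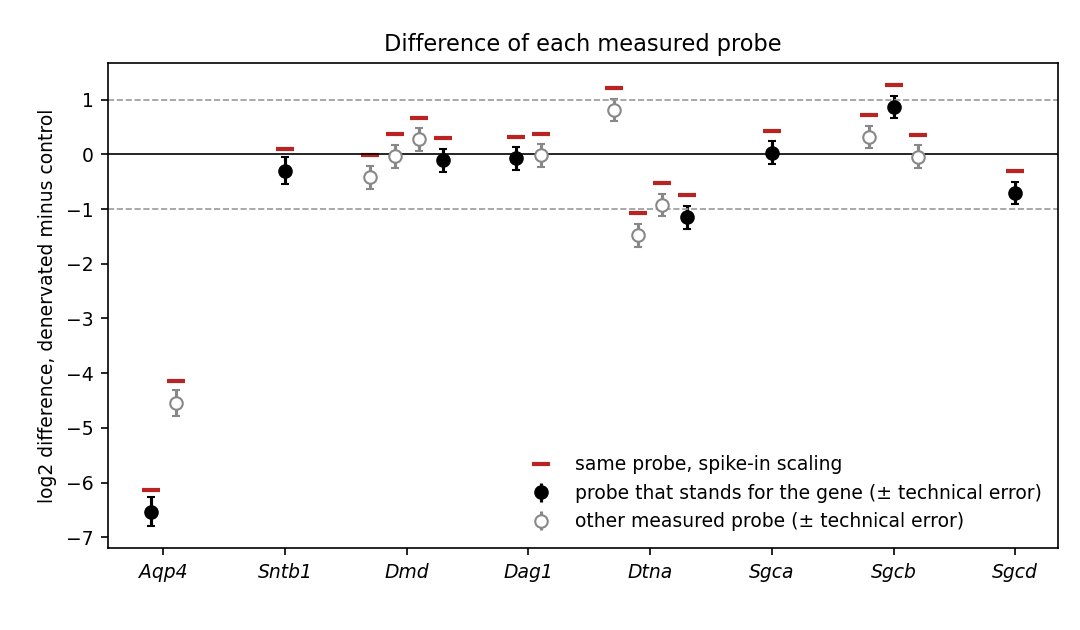
Log2 difference of each of the 18 measured member probes with its technical error, filled for the probe that stands for the gene and open for the others, and a red bar for the same probe with spike-in scaling. The Aqp4 probes lie at -6.53 and -4.55, the Dtna probes on both sides of 0, and the Sgcb probes between -0.04 and 0.86.

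Because Sgca, Sgcb and Sgcd encode partners of one subcomplex and differed in direction, the 250 bases before their RefSeq start sites (GRCm38.p6) are shown for comparison. Capitals mark each E-box, CANNTG, the motif bound by myogenic factors and many other factors, which reads the same on both strands. All 3 genes lie on the minus strand, and each sequence is written 5′ to 3′ on that strand and ends at the base before the start site. The windows are chr11:94976328-94976577 for Sgca, chr5:73647738-73647987 for Sgcb and chr11:47379326-47379575 for Sgcd.
Sgca: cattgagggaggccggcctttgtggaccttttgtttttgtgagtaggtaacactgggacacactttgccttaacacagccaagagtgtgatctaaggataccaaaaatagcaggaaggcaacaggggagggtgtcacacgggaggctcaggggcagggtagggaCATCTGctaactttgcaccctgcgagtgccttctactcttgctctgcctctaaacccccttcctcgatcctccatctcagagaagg
Sgcb: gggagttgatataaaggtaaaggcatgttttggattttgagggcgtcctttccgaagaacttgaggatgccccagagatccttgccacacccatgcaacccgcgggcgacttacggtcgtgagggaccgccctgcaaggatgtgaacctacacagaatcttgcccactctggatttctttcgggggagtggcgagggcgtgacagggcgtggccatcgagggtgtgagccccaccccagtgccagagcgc
Sgcd: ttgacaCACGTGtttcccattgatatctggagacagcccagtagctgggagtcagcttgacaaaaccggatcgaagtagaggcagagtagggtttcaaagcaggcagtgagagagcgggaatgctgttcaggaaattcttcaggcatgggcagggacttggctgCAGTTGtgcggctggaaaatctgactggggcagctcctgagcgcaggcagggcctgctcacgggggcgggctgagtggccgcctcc

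The Sgca window holds 1 E-box, the Sgcd window 2 and the Sgcb window none. Of 32851 windows of this length in the RefSeq table, 66.2% hold at least 1 and 31.8% at least 2. A match is only a match of letters, and the Sgcb count says only that these letters are not in its window.

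Most other genes of the complex that were measured lay within 2-fold. The list holds 14 partners and paralogs, of which 10 were measured. Only 1 fell short of the control level by 2-fold or more, none exceeded it by as much, and the median was -0.43 (-0.03 under spike-in scaling). Sarcospan (Sspn), the small membrane protein that joins the sarcoglycans, was the lower one, with signals of 17642 and 10911 and a difference of -1.13 ± 0.20, or -0.73 with spike-in scaling. Laminin alpha-2 (Lama2), the matrix ligand of dystroglycan in muscle, followed it at -0.55 ± 0.20. Epsilon-sarcoglycan (Sgce), a broadly expressed relative of Sgca, stood at -0.49 ± 0.20, and beta-dystrobrevin (Dtnb) at -0.33 ± 0.21. Zeta-sarcoglycan (Sgcz) rose above background in the controls alone and was at least 2.34-fold higher there, with 31.0 against 17.4. The same held for Drp2, a dystrophin relative known from Schwann cells, which was at least 1.99-fold higher there. Both bounds hold for the main scaling only and are lower with spike-in scaling.

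Most of the other aquaporins that were measured also lay within 2-fold. Of 11 others on the list, 5 were measured, 1 of them lower by 2-fold or more. Their median was -0.58 (-0.18 under spike-in scaling). Aqp1, the water channel of endothelium, read 79768 and 80687 (-0.42 ± 0.20, or -0.02 with spike-in scaling). The lower one was the dim Aqp8, with 62.6 and 35.5 (-1.25 ± 0.28), which is -0.85 with spike-in scaling, and Aqp7, a glycerol channel, was at -0.76 ± 0.21. Aqp11 stood at -0.58 ± 0.22. The other 6 were not well above background on either array.

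The sugar chain on dystroglycan that binds laminin is built by a set of enzymes, of which 19 were measured. Their median was -0.26 (0.14 under spike-in scaling), and 1 enzyme was higher by 2-fold or more while none was lower by as much. The higher one was B3galnt2, which adds a sugar to the core of the chain, with 16440 and 50252 (1.18 ± 0.20). The kinase Pomk, which acts on the same chain, lay on the other side of 0 at -0.91 ± 0.20 and stayed there with spike-in scaling at -0.51.

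Proteins of membrane repair and of the costamere, the rib-like attachment that dystrophin shares with integrins and filaments, included genes with larger upward differences than any member. Among the 21 measured, 6 exceeded the control level by 2-fold or more and 2 fell short of it by as much, and the median was 0.22 (0.62 under spike-in scaling). The higher ones were keratin 8 (Krt8, 6.31 ± 0.23), filamin C (Flnc, 1.63 ± 0.20), the membrane repair protein dysferlin (Dysf, 1.31 ± 0.20), talin 1 (Tln1, 1.23 ± 0.20), syncoilin (Sync, 1.16 ± 0.20), a filament protein that binds alpha-dystrobrevin, and integrin beta-1 (Itgb1, 1.11 ± 0.20). The lower ones were ankyrin 1 (Ank1, -1.34 ± 0.20, with its probes from -1.98 to -0.43) and synemin (Synm, -1.03 ± 0.20), a filament protein that also binds alpha-dystrobrevin. The Synm value is -0.63 and the Ank1 value -0.94 with spike-in scaling. So the 2 filament partners of Dtna on the list differed in opposite directions.

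**Figure D5:**
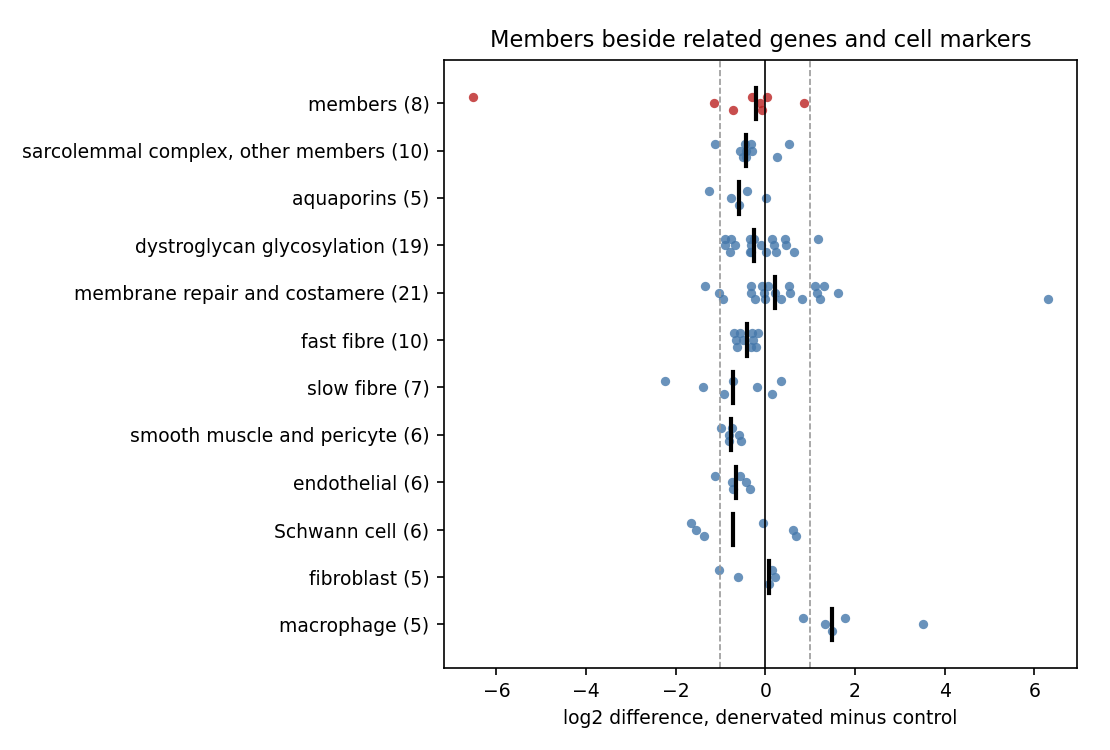
Log2 difference (denervated minus control) of each measured gene, with 1 point per gene, a black bar at the list median, dashed lines at 2-fold and the number measured in brackets, for the members, related lists and cell markers. The members include the lowest point of the plot, Aqp4 at -6.53, beside a median of -0.21, and only the macrophage median, 1.48, lies beyond 2-fold.

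Many markers of other cells differed between the pools as well. All 5 macrophage markers measured were above 0, with 4 of them past 2-fold, and their summed scaled level in the denervated pool was 286% of the control level. The summed level was 68.1% for the 6 smooth muscle and pericyte markers and 59.8% for the 6 endothelial markers, all below 0, and 47.4% for the 6 Schwann cell markers, of which 4 were below 0 and 3 past 2-fold. It was 54.5% for the 7 slow-fibre markers and 90.3% for the 5 fibroblast markers. Each sum adds intensities, so the brightest genes weigh most. In the controls, Lyz2 read 12517 and the next macrophage marker, Csf1r, 510. Acta2 read 302075 and the next smooth muscle and pericyte marker, Rgs5, 10181. Pmp22 read 7263 and the next Schwann cell marker, Mbp, 1299. The medians of these lists, which weigh genes alike, were 1.48, -0.77 and -0.71. The sums use the main scaling, and spike-in scaling raises them all. Under it, 1 endothelial, 3 Schwann cell and 3 slow-fibre markers were above 0, and no smooth muscle or pericyte marker was. The fibroblast median was 0.08, or 0.48 with spike-in scaling. Among the Schwann cell markers, the probes of Mbp ran from -1.38 to 1.87. Some listed markers lay within the technical error of 0, such as S100b at -0.04 ± 0.20 and Col1a1 at 0.08 ± 0.20. The part of these cell types in the member differences was not tested. Aqp4, chosen with its low value known, was at 1.08% to 4.27% of control, and nothing is read from its place below these levels.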

How the data were processed

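Gastrocnemius RNA of 6 mice per group was pooled and hybridised to 1 array per group. The labels' protocols give 1.65 µg of Cy3 cRNA for labelling and fragmentation. The deposited spot intensity values come from Agilent Feature Extraction, version 9.5 by the submitters' processing notes and 9.5.3.1 per the file headers, with background subtraction and detrending within the array and no scaling between arrays. The software's preset error of 10% dominates the technical error. The authors' deposited value table holds a whole-number score, which is the intensity scaled to a 75th percentile of 100 (column medians 10 and 9), and served as an alternative.

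Spots marked as outliers were left out, spots of a probe averaged on the log2 scale, and each array's 75th percentile subtracted. A gene took its measured probe with the highest mean signal. The fold threshold was 2. Of the probes, 70.9% were well above background among control values and 68.4% among denervated values, and the number of arrays limits the precision. For the 178 probes that had 8 or more usable spots, differences varied over spots by a median SD of 0.065. Through RefSeq accessions (GRCm38.p6, names only) 23374 probes were named. Probe positions are on mm8 as the files give them, and exons and UTRs were not assigned.

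The members and lists were chosen with earlier results of these data known. Named genes are all members, their paralogs, the 3 largest differences and all 2-fold differences of each related list, and the neighbours of Aqp4 in rank; the marker lists serve as a check. Some genes that this rule names are not reported. Alternatives covered scaling, background (normexp, offset 50, limma 3.58.1 under R 4.3.3), the dim filter, outlier spots, the value table and the probe rule. The scaling was tested on simulated data. No p-value was computed.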

Additional observations from a re-analysis of the deposited data

How the results depend on the processing

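No paired analysis was possible because each group is 1 array, and for the same reason no array could be left out. Aqp4 stayed at least 2-fold lower in all 12 alternatives that gave a value; the filter at 4 times the lowest detected signal removed it and Sntb1. The Dtna difference turned to 0.80 with the probe of smallest difference, since that rule selects the variant 2 probe. With spike-in scaling and with no scaling, members at least 2-fold lower numbered 1 and 1, members at least 2-fold higher 1 and 1 (Sgcb), the member median was 0.20 and 0.23, and of the 4 related lists 0 genes were at least 2-fold lower in either case, against 4 in the main setting. The list medians under these scalings were -0.0304 and 0.0018 for other complex genes, -0.18 and -0.15 for aquaporins, 0.14 and 0.17 for dystroglycan glycosylation, and 0.62 and 0.66 for membrane repair and costamere. With loess centring the aquaporin median was -0.36 and 2 related genes were 2-fold lower, and without a dim filter 8 were. Members at least 2-fold lower numbered 1 with the stricter dim filter, 1 with the mean of probes and 1 with the probe of smallest difference. The cause was not tested beyond the construction of each alternative. Dim signals limit the sizes for Aqp4 and Cntnap2 in the denervated pool and for Sntb1 in both.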
